A study of Mus musculus with 12 samples.

Results

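Tartrate-resistant acid phosphatase (TRAP, encoded by Acp5) and cathepsin K (encoded by Ctsk) are the 2 enzymes by which osteoclasts are most often recognised, and their transcripts were followed here through all 12 libraries of a bulk RNA-seq. experiment on cultured mouse osteoclasts. The genes were taken by name, as 2 of the 47643 genes in the count table, and both passed the filter on low counts. Monocytes grown from bone marrow (BMMs) of WT mice of the BALB/c strain were differentiated with M-CSF and RANKL, the cytokines that all 3 groups received, and RNA was harvested on day 3. The OCsCtr group (n = 4) received no further stimulus. The OCsEo group (n = 4) was cultured from day 0 for 48 h with eosinophils at a BMM to eosinophil ratio of 1:2, and the OCsEoS group (n = 4) received for the same time eosinophil supernatant diluted 1:2. Donors of the eosinophils, which were purified by flow cytometry out of pooled marrow and blood, were IL-5tg/4get mice on a BALB/c background. These mice overproduce IL-5 and carry an IL-4 reporter, so that the donor cells shared the strain of the BMMs but not their WT genotype. Cultures were washed and given new medium on day 2, and no sort of the cultured cells before RNA extraction is described, so that each library holds all cells left in the well. The comparisons ask whether contact with eosinophils, or what eosinophils release, changed the transcripts of the resorption machinery. The study names 4 biological replicates per group, but the sample labels do not say whether these came from separate mice, so p-values measure the spread between these cultures.

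Osteoclasts resorb bone in a sealed, acid compartment under the cell. Vacuolar ATPase and a chloride transporter acidify it, which dissolves the mineral, and cathepsin K, a cysteine protease of the papain family, then cleaves the exposed type I collagen, including its triple helix. TRAP is an iron-containing phosphatase that removes phosphate from matrix proteins such as osteopontin and is stained in nearly every osteoclast assay, and cathepsin K can itself cleave and activate TRAP. In osteoclast precursors both genes are switched on by RANKL through NFATc1, which acts together with PU.1, MITF and AP-1.

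In the files' coordinates (GRCm38), Ctsk (ENSMUSG00000028111) spans chr3:95499256-95509362 on the plus strand, and Acp5 (ENSMUSG00000001348) spans chr9:22126731-22135746 on the minus strand. In the GENCODE vM21 annotation Ctsk has 1 transcript of 8 exons and overlaps no other gene. Acp5 has 6 transcripts, of which 5 are coding, with 5 to 6 exons each, and lies inside a transcript of the opposite strand, 6530413G14Rik, which has no entry in the count table. Whether reads were counted by strand is not given in the sources used here, so reads of that transcript cannot be told apart from Acp5 reads. RefSeq lists 1 start for Ctsk and 3 for Acp5. The 250 bases before the Ctsk start (chr3:95498960-95499209, plus strand, RefSeq on GRCm38.p6) and before the most downstream Acp5 start (chr9:22130599-22130848, minus strand, RefSeq on GRCm38.p6) are shown because they let the upstream sequence of genes that changed together be compared. Capitals mark matches to GGAAA (the NFAT core), GAGGAA (the PU.1 core), TGANTCA (AP-1) and the E-boxes CACGTG and CACATG (MITF and USF), searched on both strands, so that TTTCC and TTCCTC are matches on the opposite strand. GAGGAA shares the letters GGAA with GGAAA.
Ctsk upstream: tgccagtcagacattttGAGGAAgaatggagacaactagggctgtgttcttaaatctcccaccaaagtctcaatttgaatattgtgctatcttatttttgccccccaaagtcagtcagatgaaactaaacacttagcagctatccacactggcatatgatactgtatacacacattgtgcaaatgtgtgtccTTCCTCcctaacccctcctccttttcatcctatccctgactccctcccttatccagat
Acp5 upstream: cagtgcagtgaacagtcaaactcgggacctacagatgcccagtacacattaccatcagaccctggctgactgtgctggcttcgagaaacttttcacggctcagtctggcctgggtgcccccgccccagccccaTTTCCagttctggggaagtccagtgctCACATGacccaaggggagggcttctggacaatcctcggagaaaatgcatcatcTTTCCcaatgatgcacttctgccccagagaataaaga

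The Ctsk window held 2 matches to GAGGAA, 233 bases upstream of the start on the gene strand and 58 bases upstream on the opposite strand, and none to the other motifs. The Acp5 window held 2 matches to GGAAA on the opposite strand, 117 and 37 bases upstream, and 1 CACATG at 90 bases upstream. The windows before the other 2 Acp5 starts (chr9:22135747-22135996 and chr9:22131866-22132115) each held 1 GGAAA and no other match. The 2 genes therefore shared none of the motifs searched in these windows. Such short motifs are common, as GGAAA occurred in 55.6%, GAGGAA in 23.3% and CACATG in 12.3% of the 32851 RefSeq promoter windows of the same length. A match is a string of letters and not a measured site, and counts per gene do not tell which Acp5 start was used.

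Total counts per library ranged from 27837530 to 40327869, at which 3 counts, taken as the floor of detection, corresponded to 0.0744 to 0.108 counts per 1000000 (CPM). Mitochondrial transcripts took 0.487% to 0.898% of the counts in 11 libraries and 1.43% in OCsCtr replicate 1. All osteoclast markers were present, and the summed CPM of the 10 markers (Acp5 and Ctsk included) was 28077 to 34222 in OCsCtr, 17906 to 23030 in OCsEo and 14759 to 21920 in OCsEoS. The 10 macrophage or monocyte markers summed to 2328 to 2660, 2148 to 2497 and 1942 to 2330 CPM in the same order. In bulk RNA, fewer osteoclasts and less enzyme transcript per osteoclast cannot be told apart. The 11 eosinophil markers summed to 59.7 to 77.1, 65.1 to 91.2 and 53.1 to 60.8 CPM, most of it from the receptor Ccr3 (59.6 CPM in OCsCtr), while the granule gene Epx was at 0.0664 CPM in OCsCtr, 0.203 CPM in OCsEo and 0 in every OCsEoS library. Among these markers Alox15, at 0.104 to 0.653 CPM in OCsCtr and 6.23 to 16.7 CPM in OCsEo, and Siglecf, at means of 0.428 and 2.94 CPM, were called higher in OCsEo. The granule gene Prg2 averaged 5.53 CPM in OCsCtr, 5.49 CPM in OCsEo and 0.815 CPM in OCsEoS, where it was called lower. The 10 neutrophil markers summed to 328 to 471 CPM in OCsCtr, 476 to 647 in OCsEo and 371 to 444 in OCsEoS, and the markers of osteoblasts or stroma to at most 63.7, of B cells to at most 58.4 and of T cells to at most 4.97 CPM in any library. The part of other cells in the changes below was not tested.

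Ctsk was downregulated in both stimulated groups. In the OCsCtr replicates 1 to 4 it stood at 10507, 12504, 12782 and 12679 CPM (12118 ± 1080.5, SD, n = 4). The OCsEo replicates held 6875, 8452, 9037 and 9058 CPM (8356 ± 1026.1, SD, n = 4), and the OCsEoS replicates 6973, 8497, 7914 and 6152 CPM (7384 ± 1033.7, SD, n = 4). Every stimulated library lay below the lowest OCsCtr library, while the ranges of the stimulated groups overlapped. The log2 fold change was -0.54 in OCsEo (SE 0.09, edgeR adjusted p = 0.000445), a fall of 31.0% with a 95% interval, from the standard error, of 21.9% to 39.1%. It was -0.71 in OCsEoS (SE 0.09, edgeR adjusted p = 2.27e-05), a fall of 39.1% (interval 31.0% to 46.2%). Among all 13681 genes tested, 2.61% were called lower in OCsEo and 4.11% were in OCsEoS, where a call needs both an adjusted p under 0.05 and a log2 fold change beyond 0.5 in either direction.

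Acp5 followed the same order of groups. It stood at 6327, 7313, 7117 and 7864 CPM in the OCsCtr replicates 1 to 4 (7155 ± 636.7, SD, n = 4). In OCsEo it held 4180, 5191, 4802 and 5425 CPM (4899 ± 543.9, SD, n = 4), and in OCsEoS 4037, 4989, 4257 and 3087 CPM (4093 ± 784.1, SD, n = 4). Again no stimulated library reached the lowest OCsCtr library, and the stimulated groups overlapped. Acp5 fell by 0.55 on the log2 scale in OCsEo (SE 0.10, edgeR adjusted p = 0.00115), a fall of 31.5% with an interval of 21.1% to 40.6%. The change in OCsEoS was -0.81 (SE 0.10, edgeR adjusted p = 2.5e-05), a fall of 42.8% (interval 34.1% to 50.4%). Both comparisons use the same OCsCtr libraries and are not independent of each other.

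**Figure D1:**
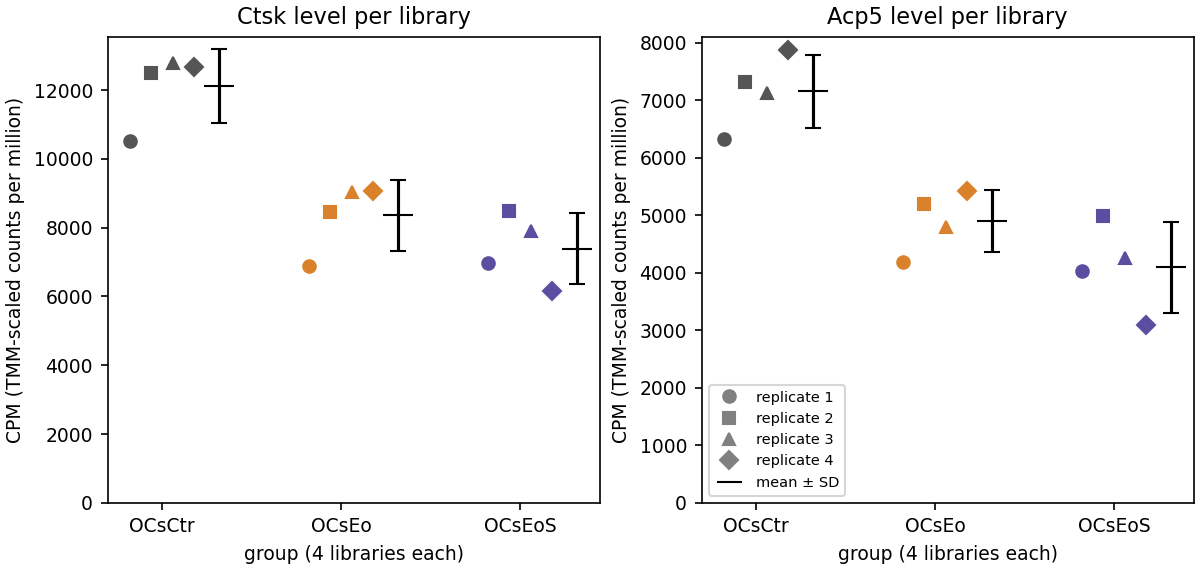
Level of Ctsk (left) and Acp5 (right) in each of the 12 libraries, in CPM on axes that start at 0, by group; symbols mark the replicate and bars the mean ± SD of 4 libraries. For both genes the 4 OCsCtr libraries lie above all 8 stimulated libraries, the lowest OCsCtr library being at 10507 CPM for Ctsk and 6327 CPM for Acp5.

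The OCsEo calls lie close to the fold change cut-off. Without OCsEo replicate 1, the lowest of its group for both genes, the log2 fold change was -0.45 for Ctsk and -0.48 for Acp5, and both genes were no longer called, although their adjusted p (edgeR) stayed at 0.0019 and 0.00604. Without OCsCtr replicate 4, Acp5 was at -0.50 (-0.4987) and also just missed the cut-off (edgeR adjusted p = 0.00508). In OCsEoS both genes stayed called whichever library was left out, with -0.79 to -0.63 for Ctsk and -0.91 to -0.69 for Acp5. The test against a log2 fold change of 0.5 itself called neither gene in either comparison (edgeR glmTreat adjusted p = 0.269 for Ctsk and 0.126 for Acp5 in OCsEoS). The data thus show falls that differ from 0, and not that they exceed 0.5.

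**Figure D2:**
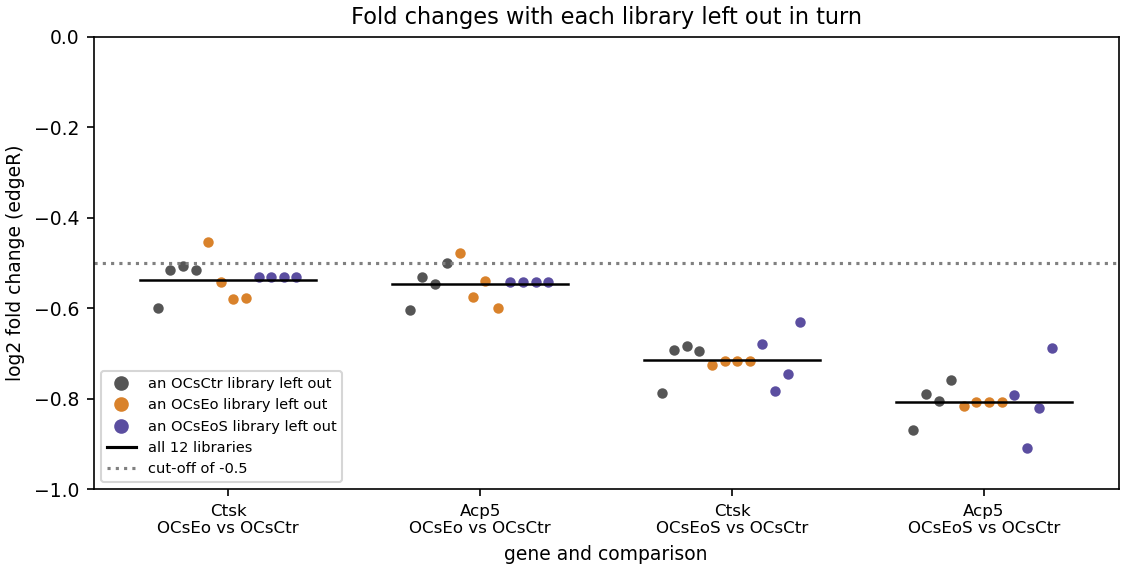
Fitted log2 fold changes of Ctsk and Acp5 with each of the 12 libraries left out in turn; the colour gives the group of the library left out, black lines the fit of all 12 libraries and the dotted line the cut-off of -0.5. In OCsEoS every point lies below the cut-off, while in OCsEo 1 of 12 points for Ctsk and 2 of 12 for Acp5 lie above it.

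Between the stimulated groups neither gene was called, where 0.38% of the tested genes were. Acp5 was lower in OCsEoS than in OCsEo by a log2 fold change of -0.26 (SE 0.10, edgeR adjusted p = 0.341), with an interval of -0.46 to -0.06. For Ctsk the difference was -0.18 (SE 0.09, edgeR adjusted p = 0.493), with an interval of -0.36 to 0.00. The order of both genes was thus OCsCtr, OCsEo and OCsEoS, and the difference between the last 2 groups did not pass after adjustment over all genes for either gene. The interval of Acp5 excluded 0 and its unadjusted p (edgeR) was 0.0219, while that of Ctsk was 0.0656.

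Both enzymes were among the most abundant transcripts of these cultures. Ctsk ranked 2 by CPM in every OCsCtr library and 3 in every stimulated library, behind the translation factor Eef1a1 in all 12 libraries and behind Ftl1, the light chain of the iron store ferritin, in the 8 stimulated libraries. Ftl1 averaged 8342 CPM in OCsCtr, 12323 CPM in OCsEo and 10457 CPM in OCsEoS. Acp5 ranked 5 to 6 in OCsCtr, 6 to 9 in OCsEo and 9 to 17 in OCsEoS. Per length of transcript, Ctsk averaged 8015 FPKM in OCsCtr, 5526 in OCsEo and 4884 in OCsEoS, and Acp5 4439, 3039 and 2539 FPKM. By FPKM, Ctsk moved from rank 3 to ranks 5 to 6 and 5 to 7, and Acp5 from rank 7 to ranks 9 to 17 and 12 to 34. Together the 2 genes took 1.94% ± 0.145 (SD, n = 4) of all counts in OCsCtr, 1.31% ± 0.131 in OCsEo and 1.15% ± 0.175 in OCsEoS.

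In terms of transcripts lost, they led the transcriptome. In both comparisons Ctsk had the largest fall in mean CPM of all genes tested (3762 CPM in OCsEo and 4734 in OCsEoS), and Acp5 had the third largest (2256 and 3063 CPM). The gelatinase Mmp9, which degrades denatured collagen, came between them (3505 and 4507 CPM). The next were the mitochondrial cytochrome oxidase gene mt-Co1 in OCsEo (1328 CPM) and the creatine kinase Ckb in OCsEoS (1838 CPM), followed by the proton pump subunit Atp6v1b2 (1132 and 1215 CPM), which was not called. OCsCtr replicate 1 had the highest mitochondrial share of all libraries (1.43%), and its part in the fall of mt-Co1 was not tested. Acp5 and Ctsk made up 8.67% of the summed fall of all genes with a lower mean in OCsEo and 9.3% in OCsEoS. This rests on their abundance, as in fold change 1150 genes fell more than Ctsk and 1114 more than Acp5 in OCsEo, and 723 and 569 in OCsEoS.

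Among the 147 genes at 1000 CPM or more in OCsCtr, the falls stood near the end of the range. Of these genes, 10 fell more than Ctsk and 7 more than Acp5 in OCsEo, and 3 and 2 in OCsEoS. Of the 10, the mitochondrial genes mt-Cytb (edgeR adjusted p = 0.145) and mt-Nd1 (edgeR adjusted p = 0.158) did not pass the adjusted p. The median log2 fold change of the 147 genes was 0.13 in OCsEo and 0.09 in OCsEoS. Those that fell more than Acp5 in OCsEoS were Mmp9 (-1.10) and Ckb (-1.05). The most abundant gene, Eef1a1, was at 0.01 in OCsEo and -0.03 in OCsEoS, and Ftl1, between Acp5 and Ctsk in level, rose by 0.56 in OCsEo and was at 0.33 in OCsEoS.

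**Figure D3:**
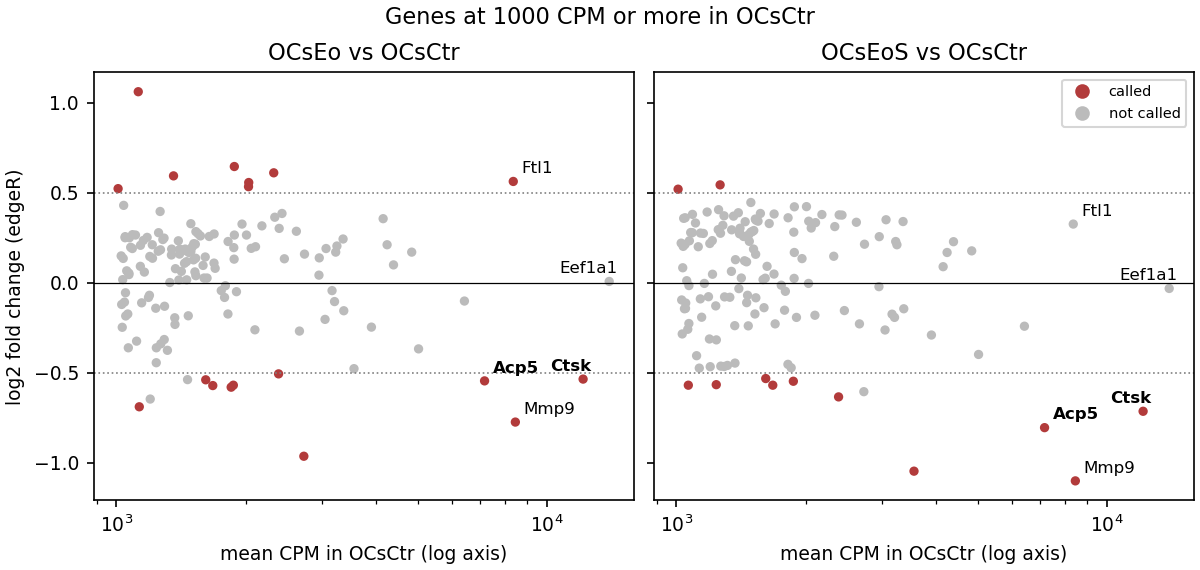
Fitted log2 fold change against the mean CPM in OCsCtr (log axis) for the 147 genes at 1000 CPM or more, in OCsEo (left) and OCsEoS (right); red points passed the adjusted p and the dotted cut-off of 0.5. Ctsk, Acp5 and Mmp9 lie at the lower right of both panels, with log2 fold changes of -0.54, -0.55 and -0.77 in OCsEo and -0.71, -0.81 and -1.10 in OCsEoS.

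The 2 enzymes changed by about the same factor. The number of Acp5 reads per Ctsk read, which depends on neither depth nor scaling, was 0.602, 0.585, 0.557 and 0.620 in the OCsCtr replicates 1 to 4 (0.591 ± 0.027, SD, n = 4). It was 0.608, 0.614, 0.531 and 0.599 in OCsEo (0.588 ± 0.0384, SD, n = 4) and 0.579, 0.587, 0.538 and 0.502 in OCsEoS (0.551 ± 0.0395, SD, n = 4). All 3 ranges overlapped, and the lowest ratio was that of OCsEoS replicate 4. The log2 ratio of OCsEo differed from that of OCsCtr by -0.01 (SE 0.06, exact permutation test, two-sided, p = 0.857, adjusted over 3 comparisons 0.857). The difference was -0.10 between OCsEoS and OCsCtr (SE 0.06, exact permutation p = 0.171, adjusted 0.3) and -0.09 between OCsEoS and OCsEo (SE 0.07, exact permutation p = 0.2, adjusted 0.3). The smallest p that 4 against 4 libraries allow is 0.0286, and these p-values do not show that the ratios are equal.

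Within the groups, both genes also moved together across the replicates. Taken as the deviation of log2 CPM from the group mean, both genes were low in OCsCtr replicate 1 (-0.17 for Acp5 and -0.20 for Ctsk), in OCsEo replicate 1 (-0.22 and -0.27) and in OCsEoS replicate 4 (-0.39 and -0.25). Both were high in OCsEoS replicate 2 (0.31 and 0.21) and OCsEo replicate 4 (0.15 and 0.13). Over the 12 libraries Pearson's r of the deviations was 0.898 (exact permutation of pairings within groups, p = 0.00137) and Spearman's rho 0.727 (exact permutation p = 0.0349). Without OCsEoS replicates 2 and 4, the libraries farthest from the median of the Acp5 deviations, r was 0.856 (exact permutation p = 0.0165) and rho 0.661 (exact permutation p = 0.108), so that the relation of ranks no longer passed 0.05 without them. Genes of the same library share its depth and scaling.

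The same 3 libraries were low for other osteoclast markers. Of the other 8 markers, 7 had their lowest OCsCtr value in replicate 1, 7 their lowest OCsEo value in replicate 1 and 6 their lowest OCsEoS value in replicate 4. Mitochondrial counts were highest of their group in OCsCtr replicate 1 (1.43%) and OCsEoS replicate 4 (0.898%), whereas OCsEo replicate 1, at 0.529%, was within its group's range of 0.515% to 0.600%. The part of this share in the deviations was not tested.

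**Figure D4:**
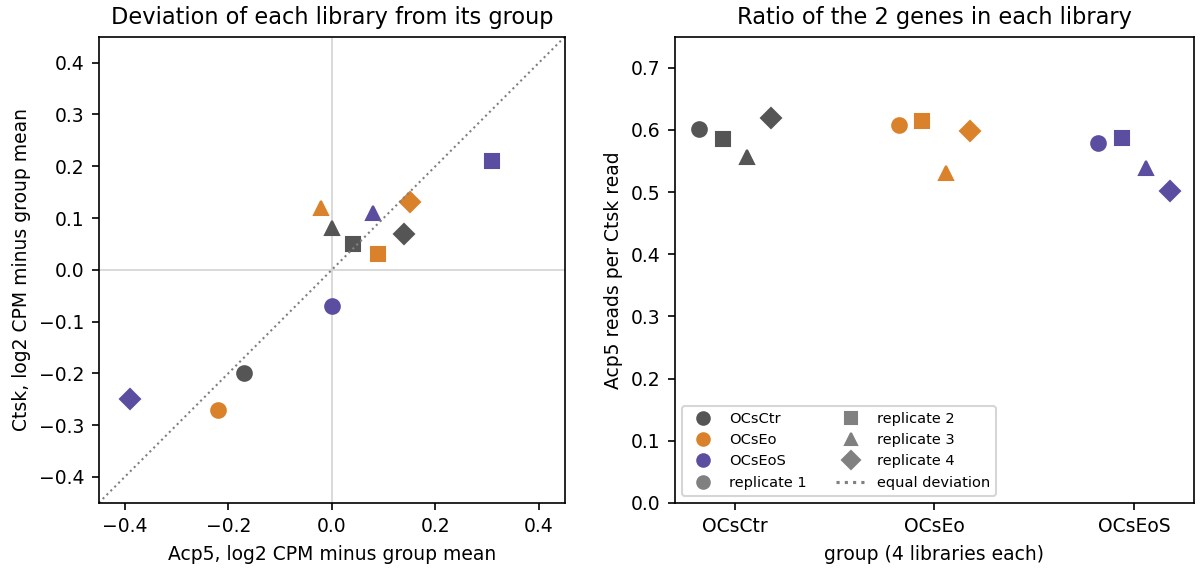
Left, deviation of log2 CPM from the group mean for Acp5 (x axis) and Ctsk (y axis) in each of the 12 libraries, with a dotted line of equal deviation; right, Acp5 reads per Ctsk read in each library. Colours give the group and symbols the replicate; the deviations run along the line (Pearson's r = 0.898), and the ratios of the 3 groups overlap between 0.502 and 0.620.

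The genes whose level was most like that of each enzyme were listed from the 8377 genes whose log2 CPM averaged 3 or more, by Pearson's r over the 12 libraries, as a description without a test, since these libraries share the group difference. For Acp5 the closest were Adck3 (0.996), a kinase-like gene of coenzyme Q synthesis, Mmp9 (0.992) and the metalloreductase Steap4 (0.991), and the closest 10 reached down to the mitochondrial channel gene Vdac1 (0.986). For Ctsk they were the malate dehydrogenase Mdh1 (0.994), Cyp4v3 (0.992) and the proton pump subunit Atp6v1e1 (0.990), and the closest 10 reached down to Dlst of the citric acid cycle (0.985). The 2 enzymes were close to each other (r = 0.975) but not each other's closest, each at position 24 of 8377 in the other's list. With the group means removed, Adck3 (0.985), Capn6 (0.985), Steap4 (0.977), Pmaip1 (0.974) and Mmp9 (0.969) led for Acp5. For Ctsk the order was the ATP synthase gene Atp5b (0.987), Cyp4v3 (0.979), Mdh1 (0.978), Arhgap19 (0.970) and the proton pump accessory gene Atp6ap1 (0.968). Ctsk then stood at position 72 in the list of Acp5, and Acp5 at position 87 in that of Ctsk.

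Cathepsin K stood apart in direction from relatives of its own family. Of 8 other papain family cathepsins tested, 3 were called higher and none lower in OCsEo, and 2 higher and none lower in OCsEoS, where 3.27% and 3.63% of all genes were called higher. The list's median log2 fold change was 0.27 and 0.28, against -0.007 and -0.006 over all genes. Cathepsin L (Ctsl), a lysosomal endopeptidase, averaged 954 CPM in OCsCtr, 1946 CPM in OCsEo and 1622 CPM in OCsEoS. This was a rise of 1.03 on the log2 scale in OCsEo (edgeR adjusted p = 3.72e-07) and of 0.77 in OCsEoS (edgeR adjusted p = 9.95e-06). Cathepsin S (Ctss), which trims the invariant chain in antigen presentation, rose by 0.78 and 0.54. Cathepsin B (Ctsb), an abundant lysosomal protease, rose in OCsEo (0.65) and was at 0.17 in OCsEoS (edgeR adjusted p = 0.0868). Ctsz, at -0.26 in OCsEoS (edgeR adjusted p = 0.001), and Ctsc, at 0.48, passed the adjusted p there without reaching the cut-off. Ctsh did so in both comparisons, at 0.35 in OCsEo (edgeR adjusted p = 0.00616) and 0.29 in OCsEoS (edgeR adjusted p = 0.0164).

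Per transcript length, Ctsk nonetheless remained the leading cathepsin in every group, with 4884 FPKM in OCsEoS against 823 for Ctsl and 713 for Ctss. In a measure chosen after these values were seen, Ctsk made up 80.3% ± 1.56 (SD, n = 4) of the summed FPKM of the 10 cathepsins in OCsCtr, 64.4% ± 3.04 in OCsEo and 65.9% ± 3.7 in OCsEoS. The OCsCtr range of 78.7% to 82.0% overlapped neither the OCsEo range of 60.4% to 67.0% nor the OCsEoS range of 62.2% to 70.1%. The number of Ctsk reads per Ctsl read was 12.9 ± 2.26 in OCsCtr, 4.33 ± 0.713 in OCsEo and 4.65 ± 1.19 in OCsEoS. The share and the ratio restate the opposite changes of these genes, so a p-value for them would add no evidence. Without OCsCtr replicate 1, OCsCtr replicate 2 or OCsEoS replicate 1, Ctss lay under the cut-off in OCsEoS (lowest value 0.48) and Ctsl was the 1 cathepsin called higher there. Ctsl was called with each of the 12 libraries left out.

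The contrast holds side by side on chromosome 3. Ctss is the next tested gene to Ctsk, 17423 bases away, and was called higher where Ctsk was called lower (edgeR adjusted p = 6.7e-06 in OCsEo and 0.000222 in OCsEoS). On the other side, 2015 bases away, Arnt, a partner of hypoxia and dioxin receptors, was at -0.38 and -0.40, past the adjusted p (edgeR, 0.0495 and 0.0309) but not the cut-off. The further neighbours Setdb1, Cers2, Golph3l and the pseudogene Rps10-ps1 were not called either, although Golph3l passed the adjusted p in OCsEoS (-0.30, edgeR adjusted p = 0.0236). Near Acp5, of Elof1, Ecsit, Gm16845, Pigyl, Zfp809 and the pseudogene Rpl15-ps3, only Rpl15-ps3 was called, in OCsEo (-0.66, edgeR adjusted p = 0.041), and Elof1 passed the adjusted p alone in OCsEoS (0.33, edgeR adjusted p = 0.00345). Rpl15-ps3 had 4.24 CPM in OCsCtr and can share reads with its parent gene, so its value is uncertain.

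Among the acid phosphatases, Acp5 was the only gene called. Acp1, Acp2, Acp6 and Acpp were tested, and their log2 fold changes lay at 0.07, -0.06, 0.11 and -0.53 in OCsEo and at 0.08, -0.13, 0.27 and -1.43 in OCsEoS. None passed the adjusted p in either comparison, and Acpp, at 0.628 CPM in OCsCtr, had standard errors of 0.72 and 0.75. The lysosomal phosphatase Acp2 had 11.3 FPKM and the cytosolic phosphatase Acp1 12.5 FPKM in OCsCtr, against 4439 FPKM for Acp5.

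**Figure D5:**
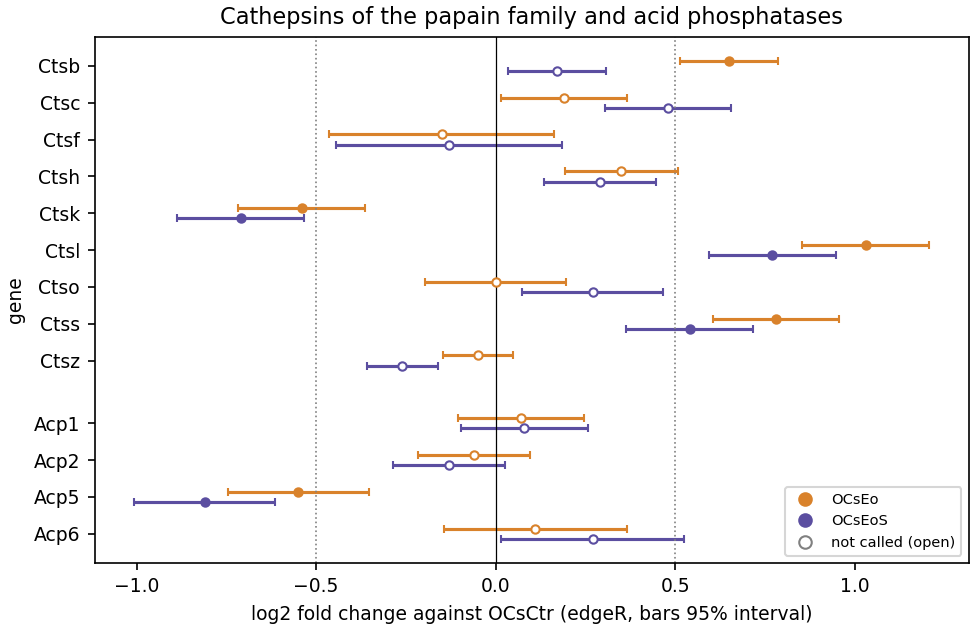
Fitted log2 fold changes against OCsCtr of the papain family cathepsins (upper genes) and acid phosphatases (lower genes) in OCsEo and OCsEoS, with bars of 95% intervals and filled points for genes called; Acpp, at 0.628 CPM in OCsCtr, is left out. Among the genes shown, Ctsk (-0.54 and -0.71) and Acp5 (-0.55 and -0.81) lie to the left of their relatives, of which Ctsl lies at 1.03 and 0.77. The omitted Acpp was at -0.53 and, beyond Acp5 in OCsEoS, at -1.43, with standard errors of 0.72 and 0.75.

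The genes listed as partners of both enzymes in resorption mostly fell with them. The list also holds genes of cell fusion (Dcstamp and Ocstamp) and of receptors (Calcr, Oscar and Tnfrsf11a). Of 22 resorption partners, 13 were called lower in OCsEo, 14 were in OCsEoS, and none was called higher in either, with medians of -0.54 and -0.56. By the adjusted p alone, 21 of 22 were lower in each comparison, against 8.35% and 11.2% of all genes tested. Some of these genes were chosen with results of these samples known, so the counts are no independent evidence of direction. On the acid-secreting side, the proton pump subunits Tcirg1 (-0.54 and -0.53) and Atp6v0d2 (-0.57 in both), the chloride channel Clcn7 (-0.67 and -0.70) and the anion exchanger Slc4a2 (-0.67 and -0.55) fell. The carbonic anhydrase Car2, which supplies the protons, was at -0.31 and -0.33, past the adjusted p but not the cut-off. Of the vesicle genes, Snx10 (-0.68 and -0.70) and Plekhm1 (-0.61 and -0.57) fell. Of the attachment genes, the integrin chain Itgb3 fell by 0.99 and by 0.91, and the kinase Src by 0.55 and by 0.66. Leaving out 1 library gave 11 to 14 calls in OCsEo and 11 to 16 in OCsEoS, and Tcirg1 was among those lost without OCsCtr replicate 3 in both comparisons, without OCsEo replicate 1 in OCsEo and without OCsEoS replicate 4 in OCsEoS, as was Atp6v0d2 in the last.

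Most known regulators of both genes did not pass the test. Of 31 transcription regulators, Fosl2, Ppargc1b and Prdm1 were called lower in each comparison, with list medians of -0.02 and -0.07. Nfatc1, the main regulator of osteoclast differentiation, was at -0.42 in OCsEo (edgeR adjusted p = 0.000935) and -0.37 in OCsEoS (edgeR adjusted p = 0.00174), below the cut-off. Fosl2, an AP-1 subunit, was at -0.52 and -0.54, and Prdm1, a repressor of anti-osteoclastic genes, at -0.51 and -0.55. Spi1, which encodes PU.1, was at -0.02 and -0.14, Fos at 0.06 and 0.14, and Mitf at -0.12 and -0.16, none of them past an adjusted p of 0.05. Fosl2 was not called in OCsEo without OCsCtr replicate 4 or OCsEo replicate 3, nor Prdm1 in OCsEo without OCsCtr replicate 2, OCsEo replicate 1 or OCsEo replicate 3. In OCsEoS the calls of Prdm1 and Ppargc1b were lost without OCsEoS replicate 3 and without OCsEoS replicate 4, in that order.

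None of the 9 genes tested from a list of cystatins, stefins and serpins was called in OCsEo or OCsEoS. Over all genes, 2.61% and 4.11% were called lower and 3.27% and 3.63% higher. The most abundant, cystatin C (Cst3, 1876 CPM in OCsCtr), was at 0.13 and 0.02, while cystatin B (Cstb, 1589 CPM) was at 0.10 and 0.02. The serpins Serpinb6a at 0.45 and 0.34, and Serpinb6b at 0.29 in OCsEo (edgeR adjusted p = 0.0127), passed the adjusted p without reaching the cut-off. No cystatin or stefin tested passed it in either comparison. Stfa2, Stfa2l1 and BC100530 lay beyond 0.5 in OCsEo (0.56, 0.81 and 0.56) but, at under 1 CPM, did not pass the adjusted p.

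Of 14 genes tested of the route that carries both enzymes to lysosomes, 1 was called lower and 2 higher in OCsEo, and 1 lower and 1 higher in OCsEoS, with medians of 0.01 and 0.06, where 2.61% and 4.11% of all genes were called lower and 3.27% and 3.63% higher. Gnptab, the enzyme that starts the mannose 6-phosphate tag, fell by 0.64 (edgeR adjusted p = 0.000112) and by 0.81 (edgeR adjusted p = 8.51e-06). The sorting receptor Sort1 was called higher in both comparisons (0.81 and 0.79) from 6.1 CPM in OCsCtr, and the lysosomal membrane gene Lamp1 in OCsEo (0.52). The mannose 6-phosphate receptor M6pr was at 0.02 and 0.08. The call of Lamp1 was lost without OCsCtr replicate 2 or OCsEo replicate 4 (lowest value 0.49).

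Of the substrates and matrix uptake genes, 5 of 9 were tested. In each comparison 1 was called higher and none lower, with medians of -0.45 in OCsEo and 0.03 in OCsEoS. Of all genes, 3.27% and 3.63% were called higher and 2.61% and 4.11% lower. The collagen genes Col1a1 (-0.49 and -0.2) and Col1a2 (-0.79 and -0.33) did not pass the adjusted p. Spp1, which encodes the TRAP substrate osteopontin, rose in OCsEo (0.67, edgeR adjusted p = 1.16e-06) and was at 0.36 in OCsEoS, past the adjusted p but not the cut-off. The collagen uptake receptor Mrc1 was called higher in OCsEoS (0.80) from 11.6 CPM in OCsCtr, a call that was lost without OCsCtr replicate 2 or OCsEoS replicate 1. Between OCsEoS and OCsEo no gene of these lists was called.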

How the data were processed

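Expression was measured by paired-end bulk RNA-seq. in 12 libraries, grouped by their titles. The authors cleaned reads with fastp, aligned them with HISAT2 2.0.5 to GRCm38/mm10 and counted reads per gene with featureCounts, and the deposited counts are raw. The annotation release and strand setting are not given in the sources used here. Genes were filtered with filterByExpr (minimum count 10, 13681 genes left), scaled by TMM (factors 0.968 to 1.03) and compared in 1 fit of all 3 groups with edgeR 4.0.16 (quasi-likelihood F-test) in R 4.3.3. Adjusted p-values are Benjamini-Hochberg values over all genes tested, and calls needed a value under 0.05 with a log2 fold change beyond 0.5 either way. FPKM used the gene length in the table, and log2 CPM a prior count of 2. The steps were tested on simulated data. The genes named are Acp5, Ctsk, fixed lists and markers, the 3 nearest tested genes on each side, the 10 genes with the closest level and 5 with the closest deviation, up to 10 genes ranked above, and the 5 largest falls in mean CPM. These genes and lists were chosen with earlier results of these data known. Not every gene of the lists is reported here. Alternatives were other tests (DESeq2 1.42.0, limma-voom with limma 3.58.1), scalings, filters, cut-offs, a replicate block, thinning, gene length and each library left out. Chosen after seeing the data were the share of Ctsk among cathepsins, its ratio to Ctsl and the list counts without single libraries. Depth per library sets a counting error of at most 0.307% for either gene, and floors cover counting error only.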

Additional observations from a re-analysis of the deposited data

Results flagged for a closer look

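The Ctsk level of OCsCtr replicate 1 (10507 CPM) stood apart from the other 3 OCsCtr libraries (12504, 12782 and 12679 CPM), its gap to the nearest being 0.878 of the group's range, above the 95% critical value of Dixon's test for 4 samples. Level and ratio were tested at both ends in 3 groups, and chance marks about 1 in 20 groups. The same library had the lowest Acp5 level of its group (6327 CPM) and the highest mitochondrial share (1.43%), and the part of either was not tested. Without it, the log2 fold change of Ctsk was -0.60 in OCsEo and -0.79 in OCsEoS.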

How the results depend on the processing

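Across 310 recomputed results, 281 kept their direction and side of the threshold or stayed within 1.5 times the count. With a log2 fold change cut-off of 1, or with edgeR's test against 0.5, Acp5 (-0.55 and -0.81 in OCsEo and OCsEoS) and Ctsk (-0.54 and -0.71) were not called. Genes called numbered 804, 1058 and 52 (OCsEo, OCsEoS and OCsEoS against OCsEo), 2382, 3151 and 81 without a cut-off, 136, 160 and 21 with a cut-off of 1, and 50, 55 and 3 in the test against 0.5. OCsEoS against OCsEo also gave 94 with DESeq2 on all 12 libraries and 100 without a filter on low counts, where Acp5 had an adjusted p (edgeR) of 0.0216 at -0.26. When single libraries were left out, the log2 fold change ranged from -0.60 to -0.48 for Acp5 and from -0.60 to -0.45 for Ctsk in OCsEo, from -0.91 to -0.69 and from -0.79 to -0.63 in OCsEoS, and from -0.37 to -0.15 and from -0.27 to -0.10 between OCsEoS and OCsEo. Genes called ranged from 664 to 980, from 849 to 1345 and from 17 (without OCsEoS replicate 3) to 62. The last was 27 without OCsEo replicate 2 and 34 without OCsEo replicate 3 or OCsEoS replicate 4. The log2 ratio of Acp5 to Ctsk ranged from -0.0367 to 0.0396 in OCsEo against OCsCtr (positive at 0.0009 without OCsCtr replicate 1, 0.0151 without OCsCtr replicate 4 and at the upper end without OCsEo replicate 3), from -0.13 to -0.06 in OCsEoS against OCsCtr and from -0.14 to -0.05 between the stimulated groups. Pearson's r of the deviations ranged from 0.869 to 0.943. After removal of each library's trend with gene length, the falls were larger (-0.64 and -0.92 for Acp5, -0.64 and -0.83 for Ctsk). The cause of these shifts was not tested. Replicate numbers were not taken to pair the libraries, since none of the 12 correlations of same-numbered deviations (-0.0435 to 0.0944) was over 0.1, although in 8 of 12 comparisons of a library with another group the library of the same number correlated best, a hint from the data and not the design. A replicate block left the fold changes of Acp5 (-0.55, -0.81 and -0.26) and Ctsk (-0.54, -0.71 and -0.18) and their calls as they were. Depth does not limit Acp5 or Ctsk, which had at least 105922 counts in each library.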
